A study of Mus musculus with 35 samples.

Results

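Scavenger receptors are surface and secreted proteins through which macrophages bind modified lipoproteins, dying cells, microbial surfaces and protein complexes of the blood. The mRNA levels of 8 of them were followed here: Msr1, Marco, Cd36, Scarb1, Olr1, Stab1, Cd163 and Cd5l. They were chosen by name, as the Ensembl gene entries of the deposited expression tables that map to these symbols, 8 of 47069 entries in all. Of the 8, 7 had a mean of at least 1 FPKM (fragments per kilobase of gene model, scaled to the library's mapped fragments) over all libraries and could be tested, together with the other genes above that mean, 11354 in total. Olr1 fell below it.

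The libraries came from bone marrow-derived macrophages, which are grown from mouse marrow cells, here in medium conditioned by L929 fibroblasts as the source of macrophage growth factor. The labels give C57BL/6 as the strain of all mice. Per the study's methods, which do not describe the AMPKa1-/- line, adult animals of both sexes were used. As a general rule the methods count N by individual mice except where noted, and do not say so for these libraries in particular. Macrophages of WT mice and of mice labelled AMPKa1-/-, a name for loss of the catalytic alpha-1 subunit of the energy sensor AMP-activated protein kinase, were exposed for 24 h to 1 of 6 treatments. These were the solvent DMSO (vehicle), 100 nM of the synthetic glucocorticoid dexamethasone (Dex), 100 ng/ml lipopolysaccharide (LPS), LPS + Dex, 1 µg/ml of damage-associated molecular patterns (DAMPs), or DAMPs + Dex. There were 35 libraries in 12 groups, with 3 libraries in each group except WT LPS. That group had 2, its replicates 2 and 3, and no WT LPS library of replicate 1 was among the 35. The labels do not say what the DAMPs preparation held, how the AMPKa1-/- allele was made or what a replicate number marks. If libraries of a group were not separate cultures, the p-values measure only the spread between these samples, which may be technical. Because these are bulk samples, fewer cells of a type and less RNA per cell cannot be told apart.

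Scavenger receptors are sorted into classes by structure. Class A holds trimeric receptors with a collagen-like stalk (Msr1, Marco), class B holds receptors that cross the membrane at both ends and carry lipid (Cd36, Scarb1), and the lectin-like oxidized lipoprotein receptor Olr1, the endocytic receptor Stab1 and the cysteine-rich proteins Cd163 and Cd5l belong to further classes. Cd163, which takes up haptoglobin-haemoglobin complexes, and Stab1 are widely used as markers of glucocorticoid-treated or alternatively activated macrophages, whereas Marco is a well-known target of Toll-like receptor stimulation, and Cd36 and Cd5l are known targets of the lipid-sensing nuclear receptors. Cd5l is a secreted protein of macrophages and not itself an endocytic receptor.

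The gene named by the genotype, Prkaa1 (ENSMUSG00000050697; chromosome 15, 5143861 to 5181899), encodes the alpha-1 subunit. Its level in WT was 15.9, 11.8 and 15.3 FPKM with vehicle, 26.1, 23.2 and 19.1 with Dex, and 15.3 and 10.4 with LPS. The other WT groups stood at 20.5, 13.7 and 8.59 FPKM with LPS + Dex, 17.9, 12.4 and 11.03 with DAMPs, and 20.9, 12.5 and 19.5 with DAMPs + Dex. The WT Dex libraries were all above the WT vehicle libraries. In the libraries labelled AMPKa1-/- it was 14.8, 16.5 and 15.4 FPKM with vehicle, 21.5, 14.03 and 20.4 with Dex, and 9.05, 11.2 and 10.5 with LPS. There it was 12.5, 12.9 and 9.65 FPKM with LPS + Dex, 10.7, 15.8 and 16.4 with DAMPs, and 21.8, 20.0 and 24.0 with DAMPs + Dex. The genotypes overlapped in all 6 treatments and no difference passed the test, the log2 fold changes lying between −0.29 and 0.33. A level summed over the whole gene does not show a deletion of part of it or loss of the protein, so these values do not check the label, and the second group is called the libraries labelled AMPKa1-/- throughout.

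Macrophage markers were high in every library. All 8 of the marker genes listed for macrophages (Adgre1, Csf1r, Cd68, Itgam, Lyz2, Fcgr1, Mertk and Aif1) had means of at least 1 FPKM, their sum ran from 13061 to 39367 FPKM, and lysozyme (Lyz2) was the most abundant at 10343 to 35906 FPKM. Of 8 neutrophil markers, 3 had a mean of at least 1 FPKM, and their sum ran from 0.356 to 133 FPKM. With LPS nearly all of it was the cathelicidin gene Camp, which stood at 113 to 133 FPKM in the WT LPS libraries, at 92.5 to 117 in those labelled AMPKa1-/- and at 23.8 to 52.1 with LPS + Dex, against at most 3.51 elsewhere, while the group means of Ly6g, Mpo, Elane, Retnlg and Cxcr2 were all at or below 0.205 FPKM. Elsewhere the sum was small and held the granule genes Ngp (up to 7.56 FPKM) and Ltf (up to 6.20), both highest in libraries labelled AMPKa1-/-. The 6 endothelial markers summed to 0.0963 to 53.1 FPKM, with Kdr the most abundant in the LPS libraries and Stab2, itself a scavenger receptor, in the Dex libraries (7.94 to 8.45 in WT). The 6 fibroblast markers summed to 1.16 to 24.7 FPKM, with Col1a2 the most abundant at up to 11.9, and the 4 megakaryocyte markers to 0.479 to 14.1 FPKM. The sums for dendritic cells, B cells, T cells, erythroid cells, mast cells and adipocytes did not exceed 1.94, 3.19, 0.204, 0.273, 1.53 and 0.123 FPKM. Markers moved with LPS, as several scavenger receptors did. The macrophage sum was 14211 to 17384 FPKM in the WT LPS libraries, all below the 21140 to 27044 with vehicle. In those labelled AMPKa1-/- it was 13061 to 23024 against 21884 to 32613. Most of the sum was Lyz2, with means of 12857 FPKM in WT LPS and 19655 in WT vehicle. With LPS + Dex the sum was 27988 to 31899 FPKM in WT, above vehicle. In the libraries labelled AMPKa1-/- it was then 27144 to 39219, overlapping with vehicle. The chemokine gene Ppbp, on the megakaryocyte list, had means of 12.4 and 9.64 FPKM with LPS against 0.333 and 0.437 with vehicle. Kdr had means of 48.9 and 32.9 FPKM against 1.80 and 1.38. The part of Camp, Kdr, Ppbp and the macrophage sum in the results on LPS was not tested.

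The RefSeq table of promoters (build GRCm38.p6) held 6 of the 8 genes. The 250 bases before the start of 4 of them are shown, because the results below on Dex (Cd163), on LPS and Dex together (Marco and Cd36) and on LPS alone (Olr1) turn on these mRNAs. Sequences run 5′ to 3′ on the strand of the gene, and capitals mark matches on either strand to short motifs that were searched by letters.
Cd163: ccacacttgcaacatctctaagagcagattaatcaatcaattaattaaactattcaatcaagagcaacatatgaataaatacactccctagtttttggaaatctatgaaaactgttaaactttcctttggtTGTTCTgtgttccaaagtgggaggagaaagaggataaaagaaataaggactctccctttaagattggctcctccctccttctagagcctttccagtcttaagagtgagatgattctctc
Marco: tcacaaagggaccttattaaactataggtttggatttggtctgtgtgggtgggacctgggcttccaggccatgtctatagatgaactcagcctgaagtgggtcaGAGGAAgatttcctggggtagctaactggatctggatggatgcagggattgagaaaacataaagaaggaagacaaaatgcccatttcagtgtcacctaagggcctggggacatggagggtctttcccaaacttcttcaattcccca
Cd36: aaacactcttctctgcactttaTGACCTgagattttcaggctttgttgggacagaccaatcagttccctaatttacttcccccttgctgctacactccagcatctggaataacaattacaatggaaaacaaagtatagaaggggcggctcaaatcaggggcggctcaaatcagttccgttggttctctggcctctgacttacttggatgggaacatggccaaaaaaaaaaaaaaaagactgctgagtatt
Olr1: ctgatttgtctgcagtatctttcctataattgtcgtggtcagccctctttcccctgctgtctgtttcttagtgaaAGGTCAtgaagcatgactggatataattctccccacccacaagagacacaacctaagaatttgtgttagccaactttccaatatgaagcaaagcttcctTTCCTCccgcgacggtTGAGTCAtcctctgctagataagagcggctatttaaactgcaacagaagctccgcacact

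The Cd163 sequence lies at chr6:124304401-124304650 on the plus strand, the Marco sequence at chr1:120505025-120505274, the Cd36 sequence at chr5:17835897-17836146 and the Olr1 sequence at chr6:129507166-129507415, these 3 on the minus strand, and the RefSeq start of Cd36 lies inside the gene as GENCODE gives it. The glucocorticoid receptor half-site AGAACA matched once, on the reverse strand of Cd163 at positions −119 to −114 from the start, and matched in 16.1% of all 32851 promoters cut to the same length. The PU.1 core GAGGAA matched in Marco (−146 to −141), in Olr1 (reverse strand, −76 to −71), and also in Stab1 and Cd5l, against 23.3% of all promoters. The AP-1 site TGANTCA matched in Olr1 at −60 to −54 (6.75% of all promoters), and was found in no other of the 6. The nuclear receptor half-site AGGTCA matched in Cd36 (reverse strand, −228 to −223) and in Olr1 (−175 to −170), against 14.02%. The NF-kB site (3.90% of all promoters) and the TATA box TATAAA (12.4%) matched in none of the 6. The 6 motifs are short and were read on both strands, with no overlap between the matches shown, and a match or its absence describes only the letters of these windows.

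The libraries held 15837203 to 31955298 fragments (median 19973568), as read from the smallest steps between FPKM values, so that 1 fragment on a gene of 1 kilobase was worth 0.0313 to 0.0631 FPKM. Libraries of a group correlated at r = 0.967 to 0.993 across genes, and no pair held identical values. One mRNA, the acute-phase gene Saa3, took 16.0% to 24.0% of all FPKM with LPS + Dex and 3.74% to 7.58% with LPS. With vehicle it took at most 0.0344%. The unit is relative to the library's total, and the part of Saa3 in the shifts given next was not tested. Over all genes tested, the median change against vehicle on the log2 scale was −0.19 (LPS) and −0.23 (LPS + Dex) in WT, and −0.30 and −0.28 in the libraries labelled AMPKa1-/-. It stayed within 0.1 of 0 for every other treatment and genotype comparison. Receptor changes with LPS are to be read against that shift.

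The genes chosen to check the treatments moved with Dex and with LPS. With Dex, the glucocorticoid-induced leucine zipper gene Tsc22d3 rose by 3.70 and the immunophilin gene Fkbp5 by 6.88 on the log2 scale in WT (limma, adjusted p = 2.03e-16 and 4.58e-22), and by 3.98 and 6.45 in the libraries labelled AMPKa1-/-. With LPS, the interleukin gene Il1b rose by 11.33 in WT (adjusted p = 3.72e-14) and by 11.003 in the libraries labelled AMPKa1-/-, and the chemokine gene Cxcl10 by 8.20 in the latter. With DAMPs, neither passed the test in either genotype, Il1b standing at log2 fold changes of 0.09 and 1.12 and Cxcl10 at 0.64 and 0.78.

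**Figure D1:**
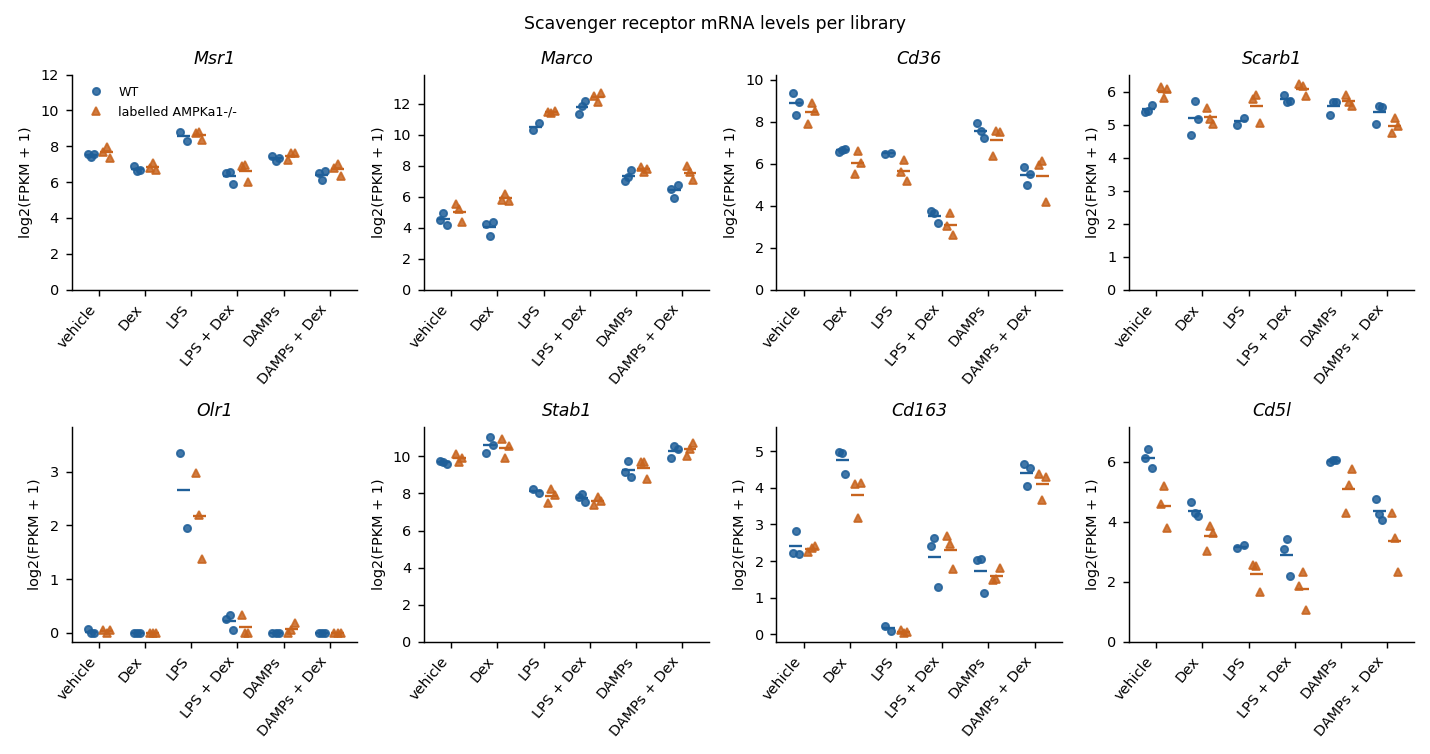
mRNA level of each of the 8 scavenger receptors in each library, as log2(FPKM + 1), by treatment; blue circles are WT and orange triangles the libraries labelled AMPKa1-/-, each point is 1 library and each bar the mean of its group. Marco stands highest with LPS + Dex (up to 6679 FPKM), Cd36 lowest with LPS + Dex (down to 4.98 FPKM), Olr1 exceeds 1 FPKM only with LPS, and Cd163 is lowest with LPS (at most 0.182 FPKM).

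Msr1, the class A receptor for modified lipoproteins (ENSMUSG00000025044; chromosome 8, 39581685 to 39642673, minus strand, build GRCm38 with GENCODE M21, as for all genes here), was raised by LPS and lowered by Dex, most of all where both were given. Msr1 stood in WT at 185, 167 and 191 FPKM with vehicle, 118, 97.1 and 100.2 with Dex, and 448 and 309 with LPS. The other 3 groups of WT stood at 90.5, 94.5 and 57.3 FPKM with LPS + Dex, 172, 142 and 164 with DAMPs, and 91.0, 67.2 and 96.6 with DAMPs + Dex. Both WT LPS libraries lay above all other WT libraries, and every WT library with Dex lay below every one without it. Libraries labelled AMPKa1-/- held 201, 248 and 164 FPKM with vehicle, 108, 134 and 99.7 with Dex, and 423, 443 and 328 with LPS. The other 3 groups of this label held 119.7, 122 and 62.0 FPKM with LPS + Dex, 146, 193 and 193 with DAMPs, and 111, 126 and 80.8 with DAMPs + Dex. The same order held there, and also across the genotypes.

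LPS raised Msr1 2.09-fold in WT (log2 fold change 1.04 ± 0.26 SE, limma adjusted p = 0.00106) and 1.95-fold in the libraries labelled AMPKa1-/- (0.97 ± 0.23, adjusted p = 0.000575). Added to LPS, Dex lowered it 4.69-fold in WT (−2.22 ± 0.26, adjusted p = 6.12e-08) and 3.93-fold in the libraries labelled AMPKa1-/- (−2.02 ± 0.23, adjusted p = 3.6e-08). The same steroid alone lowered it 1.72-fold and 1.79-fold (adjusted p = 0.0105 and 0.00703), and added to DAMPs 1.88-fold and 1.68-fold (adjusted p = 0.00329 and 0.0147). In the libraries labelled AMPKa1-/-, the call for Dex alone was lost without vehicle replicate 2 (adjusted p = 0.0552), and that for Dex added to DAMPs without DAMPs replicate 2 or 3 or DAMPs + Dex replicate 3 (0.0621, 0.0546 and 0.110). With DAMPs alone the log2 fold changes were −0.18 in WT and −0.19 in the libraries labelled AMPKa1-/-, neither past the test. In the order of its 12 group means, which ran from 80.8 ± 20.4 FPKM (SD, n = 3) in WT LPS + Dex to 398 ± 61.2 (n = 3) in AMPKa1-/- LPS, the ranges of neighbours overlapped except at 2 steps: one between the groups with Dex and those with DAMPs or vehicle, and one below WT LPS.

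Marco, the other class A receptor, which binds bacteria and particles (ENSMUSG00000026390; chromosome 1, 120474538 to 120505024, minus strand), had the widest range of the 8 on the linear scale. It was highest where LPS and Dex were combined. WT libraries held 21.7, 29.4 and 16.9 FPKM with vehicle, 17.5, 10.1 and 19.5 with Dex, and 1266 and 1690.1 with LPS. In the remaining WT groups the values were 2542, 3665 and 4528 FPKM with LPS + Dex, 127, 155 and 206 with DAMPs, and 89.2, 60.1 and 108 with DAMPs + Dex. WT libraries ranked in blocks that did not overlap, with LPS + Dex on top, LPS next, then DAMPs, DAMPs + Dex, and vehicle with Dex. For the label AMPKa1-/-, Marco stood at 44.3, 35.01 and 19.8 FPKM with vehicle, 54.2, 72.0 and 50.5 with Dex, and 2828, 2672 and 2910.3 with LPS. In its other groups Marco stood at 5642, 4499.9 and 6679 FPKM with LPS + Dex, 244, 191 and 223 with DAMPs, and 253, 193 and 131 with DAMPs + Dex. The upper blocks were the same, whereas DAMPs overlapped with DAMPs + Dex and Dex lay above vehicle.

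LPS raised Marco 65.2-fold in WT (log2 fold change 5.98 ± 0.32, limma adjusted p = 6.18e-15) and 84.8-fold in the libraries labelled AMPKa1-/- (6.44 ± 0.29, adjusted p = 7.79e-17). Dex on top of LPS raised it a further 2.42-fold in WT (1.25 ± 0.32, limma adjusted p = 0.00311) and 2.0-fold in the libraries labelled AMPKa1-/- (0.98 ± 0.29, adjusted p = 0.00782). The WT call was lost without WT LPS replicate 2 (1.04), a fit that left 1 library in that group and took its spread from the other groups. Against vehicle, LPS + Dex stood 158-fold higher in WT (adjusted p = 9.92e-18) and 169.7-fold higher in the libraries labelled AMPKa1-/- (adjusted p = 6.76e-18). Of the 7 receptors tested, Marco was the one raised by LPS and raised again by Dex on top of it, in both genotypes.

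DAMPs raised Marco 7.17-fold in WT (2.79 ± 0.29, limma adjusted p = 3.2e-06) and 6.63-fold in the libraries labelled AMPKa1-/- (2.76 ± 0.29, adjusted p = 4.21e-06); with only the WT vehicle and DAMPs groups in the fit, the WT value had an adjusted p of 0.0665. Added to DAMPs, Dex lowered it 1.90-fold in WT (−0.93 ± 0.29, adjusted p = 0.0178), a call lost without WT DAMPs + Dex replicate 2 (adjusted p = 0.130) or WT DAMPs replicate 3 (0.103), while in the libraries labelled AMPKa1-/- the log2 fold change was −0.23 and the libraries overlapped. Dex alone gave −0.52 ± 0.29 in WT, where the libraries overlapped (adjusted p = 0.170), and raised it 1.78-fold in the libraries labelled AMPKa1-/- (0.87 ± 0.29, adjusted p = 0.0243). That call was lost without AMPKa1-/- Dex replicate 2 (adjusted p = 0.117) or vehicle replicate 3 (0.55, adjusted p = 0.202), and with no filter on low values (0.0589). From 15.7 ± 4.97 FPKM in WT Dex to 5607 ± 1090.0 in AMPKa1-/- LPS + Dex (SD, n = 3 each), the order of the group means had 4 steps at which neighbours did not overlap: between AMPKa1-/- vehicle and Dex, between WT DAMPs + Dex and WT DAMPs, below WT LPS and above it.

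Cd36, the class B receptor that takes up long-chain fatty acids and oxidized lipoproteins (ENSMUSG00000002944; chromosome 5, 17781690 to 17888801, minus strand), was lowered by LPS and by Dex, and lowest with both. In WT, Cd36 stood at 655, 322 and 492 FPKM with vehicle, 92.1, 99.4 and 103 with Dex, and 88.0 and 89.3 with LPS. The other 3 WT groups stood at 12.6, 11.4 and 7.92 FPKM with LPS + Dex, 243, 187 and 148 with DAMPs, and 57.05, 30.1 and 45.0 with DAMPs + Dex. All WT vehicle libraries were the highest, and all WT LPS + Dex libraries the lowest, with no overlap with other treatments. Among the libraries labelled AMPKa1-/-, the values were 239, 473 and 368 FPKM with vehicle, 43.7, 94.9 and 63.6 with Dex, and 47.9, 71.8 and 34.7 with LPS. The rest of these libraries had 7.11, 11.5 and 4.98 FPKM with LPS + Dex, 80.9, 188 and 182 with DAMPs, and 59.6, 68.5 and 17.002 with DAMPs + Dex. Again vehicle lay on top and LPS + Dex at the bottom, without overlap. Every LPS + Dex library lay below every library of the other 10 groups, and within a genotype each treated group lay wholly below vehicle.

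Dex alone lowered Cd36 4.98-fold in WT (log2 fold change −2.25 ± 0.41, limma adjusted p = 0.000137) and 5.34-fold in the libraries labelled AMPKa1-/- (−2.41 ± 0.41, adjusted p = 5.53e-05). LPS lowered it 5.52-fold (−2.39 ± 0.46, adjusted p = 7.3e-05) and 7.00-fold (−2.79 ± 0.41, adjusted p = 1.34e-06), and LPS + Dex 46.1-fold and 45.7-fold against vehicle (adjusted p = 1.18e-11 and 1.17e-11). Added to LPS, Dex lowered it 8.35-fold in WT (adjusted p = 8.5e-06) and 6.54-fold in the libraries labelled AMPKa1-/- (adjusted p = 1.13e-05), and added to DAMPs 4.38-fold and 3.11-fold (adjusted p = 0.000267 and 0.00211). The last call was lost with only the groups compared in the fit (adjusted p = 0.0554). With DAMPs alone the means were 2.54-fold and 2.40-fold lower than with vehicle, and although no library overlapped, neither difference passed the test (adjusted p = 0.120 and 0.0817). These results depended on the fit. Both were called with a replicate block (0.0254 and 0.0165) and without AMPKa1-/- DAMPs + Dex replicate 3 (0.0455 and 0.0269), a library of neither comparison, and that in WT also with the 6 groups of the genotype alone (0.0358).

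Scarb1, the class B receptor that exchanges cholesteryl esters with high-density lipoprotein (ENSMUSG00000037936; chromosome 5, 125277087 to 125341094, minus strand), had the narrowest range of the 8 on the log2 scale. WT levels were 40.9, 42.1 and 47.5 FPKM with vehicle, 24.9, 51.9 and 34.8 with Dex, and 31.1 and 36.0 with LPS. The other WT groups held 59.2, 50.7 and 51.9 FPKM with LPS + Dex, 38.6, 51.0 and 50.9 with DAMPs, and 31.7, 46.1 and 45.9 with DAMPs + Dex. Within WT, both LPS libraries lay below all vehicle libraries, and all LPS + Dex libraries lay above them, but neither difference passed the test. It was −0.37 on the log2 scale with LPS (limma adjusted p = 0.202, and 0.0359 with only the groups compared) and 0.30 with LPS + Dex (adjusted p = 0.237, and 0.0449 after centring, at 0.53). Those labelled AMPKa1-/- had 69.7, 54.9 and 66.3 FPKM with vehicle, 44.8, 34.9 and 31.7 with Dex, and 54.5, 58.8 and 32.3 with LPS. The remaining 3 groups had 74.8, 71.0 and 57.3 FPKM with LPS + Dex, 59.0, 50.5 and 46.5 with DAMPs, and 25.8, 35.9 and 30.0 with DAMPs + Dex. All Dex and DAMPs + Dex libraries of this genotype label lay below all its vehicle libraries. LPS gave −0.42 there (adjusted p = 0.0859, and 0.0337 without AMPKa1-/- LPS replicate 2). No neighbours in the order of its 12 group means, from 30.5 ± 5.06 FPKM in AMPKa1-/- DAMPs + Dex to 67.7 ± 9.23 in AMPKa1-/- LPS + Dex (SD, n = 3 each), were separated.

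In the libraries labelled AMPKa1-/-, Dex lowered Scarb1 1.71-fold (log2 fold change −0.77 ± 0.21, limma adjusted p = 0.00773), and DAMPs + Dex stood 1.70-fold below DAMPs (−0.75 ± 0.21, adjusted p = 0.00941). The second call was lost without DAMPs replicate 1 (adjusted p = 0.0505) or DAMPs + Dex replicate 1 (0.0575) of that label. In WT the same comparisons gave −0.28 and −0.19 with overlapping libraries. Added to LPS, the steroid went the other way: Scarb1 was 1.61-fold higher with LPS + Dex than with LPS in WT (0.67 ± 0.24, limma adjusted p = 0.0306). That call was lost without WT LPS + Dex replicate 1 (adjusted p = 0.0775) and with no filter on low values (0.0607). It was also lost without WT LPS replicate 2 or 3 (log2 fold changes 0.57 and 0.77). Those fits left 1 WT LPS library and took its spread from the other groups. In the libraries labelled AMPKa1-/- the value was 0.51 ± 0.21 (adjusted p = 0.0631), and with the replicate number as a block, which pairs these libraries, its adjusted p was 0.0333. It was also called after quantile normalization (0.0357) and without any 1 of AMPKa1-/- LPS replicate 1 or 2, LPS + Dex replicate 3 or WT Dex replicate 1 or 2 (0.0269 to 0.0493).

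Olr1, the lectin-like receptor for oxidized low-density lipoprotein (ENSMUSG00000030162; chromosome 6, 129485244 to 129507165, minus strand), was listed at 0 in 21 of the 35 libraries and was above 1 FPKM only with LPS. The WT LPS libraries held 9.18 and 2.89 FPKM and those labelled AMPKa1-/- held 6.89, 3.57 and 1.59, from 210 and 74 fragments and from 163, 65 and 34. With LPS + Dex the values were 0.198, 0.252 and 0.0405 FPKM in WT and 0.262, 0 and 0 in the libraries labelled AMPKa1-/-, from 6, 5 and 1 fragments and from 7, 0 and 0. Each LPS library therefore lay above each library of any other group, and the LPS + Dex libraries lay at 0.262 FPKM or below. Vehicle gave 0.0505, 0 and 0 FPKM in WT and 0.0396, 0 and 0.0441 in the libraries labelled AMPKa1-/-, DAMPs gave 0 in all 3 WT libraries and 0, 0.036 and 0.129 in those labelled AMPKa1-/-, and all 12 libraries with Dex or DAMPs + Dex were at 0. A count of 0 allows up to 3 fragments, which were worth 0.0873 to 0.176 FPKM, counting error only. Its mean over all libraries was 0.719 FPKM, so it was not among the genes tested; with no filter on low values (27414 genes), limma gave LPS against vehicle an adjusted p of 3.96e-08 and LPS + Dex against LPS one of 3.13e-07 in WT, and values of 1.44e-07 and 5.99e-07 in the libraries labelled AMPKa1-/-.

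Stab1, the endocytic receptor stabilin-1 (ENSMUSG00000042286; chromosome 14, 31139013 to 31168641, minus strand), was the most abundant of the 8 with vehicle, and LPS lowered it with or without the steroid. Stab1 stood in WT at 856, 832 and 761 FPKM with vehicle, 1159, 2136 and 1586 with Dex, and 296 and 263 with LPS. For the other WT treatments the levels were 226, 247 and 186 FPKM with LPS + Dex, 572, 852 and 464 with DAMPs, and 971, 1479.6 and 1352 with DAMPs + Dex. All WT libraries with LPS lay below all those without it. With the label AMPKa1-/-, the levels were 1102, 813 and 956 FPKM with vehicle, 1949, 944 and 1479.7 with Dex, and 179.6, 298 and 242 with LPS. Their other levels were 164, 222 and 195 FPKM with LPS + Dex, 818, 817 and 442 with DAMPs, and 1054, 1366 and 1672 with DAMPs + Dex. The split by LPS was the same here. All libraries with LPS, with or without Dex, lay below all others, and that was the only step in the order of the group means at which neighbours did not overlap.

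LPS lowered Stab1 2.92-fold in WT (log2 fold change −1.54 ± 0.30, limma adjusted p = 9.02e-05) and 3.99-fold in the libraries labelled AMPKa1-/- (−2.01 ± 0.27, adjusted p = 2.93e-07). Dex alone raised it 1.99-fold in WT (0.95 ± 0.27, adjusted p = 0.00891), a call lost without WT Dex replicate 2 (0.73, adjusted p = 0.0771), and the value in the libraries labelled AMPKa1-/- was 0.56 ± 0.27 with overlapping libraries (adjusted p = 0.133), or 0.84 (0.0338) without AMPKa1-/- Dex replicate 2. Added to DAMPs, it raised Stab1 2.01-fold in WT (1.03 ± 0.27, adjusted p = 0.00508) and 1.97-fold in the libraries labelled AMPKa1-/- (1.01 ± 0.27, adjusted p = 0.00629), the latter call being lost without AMPKa1-/- DAMPs replicate 3 (adjusted p = 0.0676). Added to LPS it gave −0.35 ± 0.30 and −0.29 ± 0.27, neither past the test (adjusted p = 0.408 and 0.445).

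Cd163, the haptoglobin-haemoglobin receptor (ENSMUSG00000008845; chromosome 6, 124304656 to 124330527, plus strand), was raised by Dex with every stimulus and without one, and was close to undetected with LPS alone. WT libraries held 3.63, 6.03 and 3.60 FPKM with vehicle, 30.8, 29.6 and 19.8 with Dex, and 0.182 and 0.065 with LPS. The remaining WT levels were 4.29, 5.19 and 1.46 FPKM with LPS + Dex, 3.11, 3.15 and 1.19 with DAMPs, and 23.9, 15.4 and 22.3 with DAMPs + Dex. The WT libraries with Dex and with DAMPs + Dex were the highest, and those with LPS the lowest. The AMPKa1-/- libraries, as labelled, held 3.72, 4.11 and 4.29 FPKM with vehicle, 16.3, 7.96 and 16.5 with Dex, and 0.0822, 0.0305 and 0.0519 with LPS. In the other 3 groups they held 5.37, 4.58 and 2.45 FPKM with LPS + Dex, 1.77, 1.83 and 2.49 with DAMPs, and 19.8, 11.8 and 18.5 with DAMPs + Dex. The extremes were the same groups. The 2 groups with Dex alone and the 2 with DAMPs + Dex lay wholly above the other 8, the LPS libraries lay wholly below them, and LPS + Dex overlapped with vehicle and DAMPs. The LPS values rested on 15 and 6 fragments in WT and on 7, 2 and 4 in the libraries labelled AMPKa1-/-, 21 and 13 in all.

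Dex raised Cd163 6.04-fold in WT (log2 fold change 2.36 ± 0.31, limma adjusted p = 1.21e-06) and 3.36-fold in the libraries labelled AMPKa1-/- (1.47 ± 0.31, adjusted p = 0.000593), and on top of DAMPs 8.26-fold and 8.22-fold (2.66 ± 0.31 and 2.52 ± 0.31, adjusted p = 1.43e-07 and 3.53e-07). LPS lowered the mean 35.8-fold in WT and 73.6-fold in the libraries labelled AMPKa1-/- (adjusted p = 3.07e-06 and 3.67e-07). Without WT LPS replicate 2, the WT fold was 68.1, and that for Dex added to LPS, given next, 56.1. On the scale of log2(FPKM + 1), which holds back changes of low values, these were −2.24 ± 0.35 and −2.26 ± 0.31, and with a pseudocount of 0.1 FPKM they were −4.35 and −4.75. Dex added to LPS raised the mean 29.5-fold and 75.3-fold (1.94 ± 0.35 and 2.23 ± 0.31, adjusted p = 5.28e-05 and 1.07e-06), to a level that differed from vehicle by −0.30 ± 0.31 in WT and −0.02 ± 0.31 in the libraries labelled AMPKa1-/-, neither past the test. With DAMPs alone the log2 fold changes of −0.67 and −0.74 missed the threshold (adjusted p = 0.458 and 0.245, the second called at 0.0415 with only the groups compared), although all DAMPs libraries lay below the vehicle libraries of their genotype.

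Cd5l, also known as apoptosis inhibitor of macrophages (ENSMUSG00000015854; chromosome 3, 87357881 to 87371073, plus strand), was lowered by LPS in both genotypes and by Dex alone in WT. In WT, Cd5l stood at 68.9, 86.1 and 54.2 FPKM with vehicle, 24.2, 18.5 and 17.4 with Dex, and 7.69 and 8.29 with LPS. Further WT values were 7.58, 9.66 and 3.58 FPKM with LPS + Dex, 62.5, 65.6 and 65.3 with DAMPs, and 26.2, 18.1 and 15.6 with DAMPs + Dex. These WT libraries fell into 3 ranges that did not overlap, vehicle and DAMPs at the top, the groups with Dex but no LPS in the middle and those with LPS at the bottom. Under the label AMPKa1-/-, Cd5l stood at 23.3, 35.9 and 12.8 FPKM with vehicle, 7.21, 13.6 and 11.5 with Dex, and 4.96, 4.82 and 2.198 with LPS. The last 3 groups held 2.63, 4.01 and 1.09 FPKM with LPS + Dex, 18.7, 36.3 and 53.3 with DAMPs, and 18.7, 9.99 and 4.08 with DAMPs + Dex. Here DAMPs overlapped with DAMPs + Dex, and Dex alone with vehicle.

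LPS lowered Cd5l 8.73-fold in WT (log2 fold change −2.95 ± 0.47, limma adjusted p = 5.58e-06) and 6.02-fold in the libraries labelled AMPKa1-/- (−2.27 ± 0.42, adjusted p = 3.67e-05). Dex alone lowered it 3.49-fold in WT (−1.74 ± 0.42, adjusted p = 0.00250). In the libraries labelled AMPKa1-/- the value was −1.02 ± 0.42 (adjusted p = 0.0742), and with the replicate number as a block, which pairs these libraries, its adjusted p was 0.0467. It was also called without AMPKa1-/- vehicle replicate 3 (−1.39, 0.0273) or DAMPs + Dex replicate 3 (0.0475). Dex added to DAMPs lowered it 3.23-fold in WT (−1.67 ± 0.42, adjusted p = 0.00367) and 3.30-fold in the libraries labelled AMPKa1-/- (−1.73 ± 0.42, adjusted p = 0.00280), where 1 DAMPs and 1 DAMPs + Dex library both stood at 18.7 FPKM and the call was lost with only the groups compared in the fit (adjusted p = 0.0519). Without DAMPs + Dex replicate 1 of that label, the latter fold was 5.14. Added to LPS, it gave −0.26 and −0.52 with overlapping libraries, and DAMPs alone gave −0.09 and 0.56.

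Counted over the 7 receptors tested, the treatments that moved many genes also moved most of the receptors. Dex against vehicle changed 5 of 7 in WT (2 higher, 3 lower), against 30.9% of all genes tested, and 5 of 7 in the libraries labelled AMPKa1-/-, against 27.9%. With the replicate number as a block, which pairs the latter libraries, Cd5l was called there too (limma adjusted p = 0.0467). LPS against vehicle changed 6 of 7 in each genotype, Msr1 and Marco higher and Cd36, Stab1, Cd163 and Cd5l lower, against 55.7% and 64.3% of all genes, which were themselves a majority. LPS + Dex against vehicle changed 5 of 7 in each, with Marco the 1 that was higher, against 54.2% and 57.4%. DAMPs changed only Marco in each genotype, against 2.01% of all genes in WT and 4.13% in the libraries labelled AMPKa1-/-, and leaving out single libraries gave counts of 1 or 2 in each genotype. The WT share rested on 228 genes, which became 27 without WT DAMPs replicate 3, 81 and 114 without WT vehicle replicate 3 or 1, and 374 without WT DAMPs replicate 2. The other share rested on 469 genes, which became 268 and 274 without AMPKa1-/- vehicle replicate 2 or 3, and 269 and 311 without AMPKa1-/- DAMPs replicate 3 or 1. DAMPs + Dex against vehicle changed 5 of 7 and 6 of 7, against 24.9% and 26.1%, Scarb1 being called in the libraries labelled AMPKa1-/- alone. Of these calls, that of Cd5l in the libraries labelled AMPKa1-/- (−1.17, limma adjusted p = 0.0415) was lost without vehicle replicate 1 or 2 or DAMPs + Dex replicate 2 or 3 of that label (adjusted p = 0.0980, 0.228, 0.0722 and 0.317). It was also lost with a pseudocount of 0.1 (0.0560), no filter (0.0966), only the groups compared (0.137), that genotype alone (0.0954) and no moderation (0.0620). The 7 receptors' median log2 fold change was −0.52 for Dex and −1.54 for LPS in WT, against 0.05 and −0.19 over all genes, and −0.77 and −2.01 in the libraries labelled AMPKa1-/-, against −0.05 and −0.30.

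**Figure D2:**
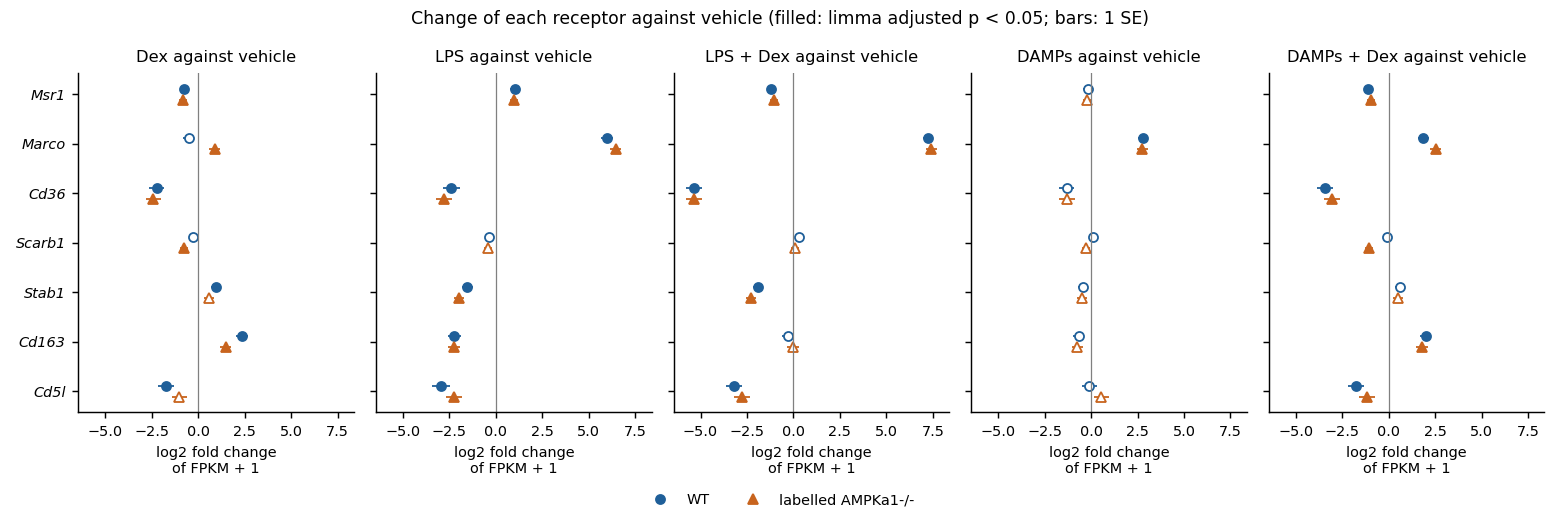
log2 fold change of FPKM + 1 against vehicle for the 7 receptors tested, in 1 panel for each treatment; blue circles are WT and orange triangles the libraries labelled AMPKa1-/-, filled symbols have a limma adjusted p under 0.05 and bars are 1 SE. With LPS + Dex, Marco lies at 7.23 and 7.42 and Cd36 at −5.36 in both genotypes, and with DAMPs the only filled symbols are those of Marco.

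Whether a stimulus altered the response to Dex was tested as the difference between the change on adding Dex with the stimulus and without it. Adding Dex to LPS changed 5 of 7 receptors in WT, against 34.1% of all genes, and 4 of 7 in the libraries labelled AMPKa1-/-, against 37.7%. With the replicate block, which pairs the latter libraries, Scarb1 was called there too (limma adjusted p = 0.0333). Adding Dex to DAMPs changed 6 of 7 in each, against 24.3% and 25.3%. The response itself differed with LPS for 4 of 7 receptors in WT, against 32% of all genes, and for 2 of 7 in the libraries labelled AMPKa1-/-, against 28.4%. With DAMPs it differed for 0 of 7 in both, against 0.00881% and 0.308% of all genes by limma, with 0 and 2 of the 7 at an unadjusted p under 0.05. These last shares are counts of 1 and 35 genes that single libraries moved widely: the WT count became 39 without WT DAMPs replicate 2. The other count fell to 0 without AMPKa1-/- DAMPs replicate 1 or 3, Dex replicate 1 or 2, DAMPs + Dex replicate 1 or vehicle replicate 3, and to 1 without DAMPs replicate 2 or vehicle replicate 2. It was 11 and 16 without AMPKa1-/- DAMPs + Dex replicate 3 or 2, and rose to 74 and 104 without WT DAMPs replicate 2 or 3. With other settings it was 113 (only the groups compared), 104 (the 6 groups of the genotype alone), 106 (a replicate block), 18 (no filter), 16 (no moderation) and 7 (a pseudocount of 0.1).

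The fall of Msr1 with Dex was steeper in the presence of LPS, by −1.44 ± 0.34 on the log2 scale in WT (limma adjusted p = 0.00193) and by −1.19 ± 0.32 in the libraries labelled AMPKa1-/- (adjusted p = 0.00604). Scarb1 responded more positively with LPS, by 0.95 ± 0.32 in WT (adjusted p = 0.0248) and by 1.28 ± 0.30 in the libraries labelled AMPKa1-/- (adjusted p = 0.00185). Marco did so by 1.77 ± 0.43 in WT (adjusted p = 0.00252), with 0.11 ± 0.41 in the libraries labelled AMPKa1-/- (adjusted p = 0.879), where Dex raised it in both settings. Stab1 responded less with LPS, by −1.30 ± 0.41 in WT (adjusted p = 0.0155), with −0.84 ± 0.38 in the libraries labelled AMPKa1-/- (adjusted p = 0.105, and 0.0295 without AMPKa1-/- Dex replicate 2). The WT calls of Scarb1 and Stab1 were lost without WT LPS replicate 2 (0.84 and −1.22), which left 1 library in that group. That of Scarb1 was also lost without WT Dex replicate 1 (limma adjusted p = 0.0916) or WT vehicle replicate 3 (0.0511) and with no filter (0.0510). That of Stab1 was also lost without WT Dex replicate 2 (adjusted p = 0.0540). For Cd5l the difference with LPS was 1.48 ± 0.64 in WT (adjusted p = 0.0757). It was called after centring (1.64, adjusted p = 0.0411) or quantile normalization (0.0327), with only the groups compared (0.0248) or the 6 groups of the genotype alone (0.0121), and without WT LPS + Dex replicate 3 (0.0346). For Cd36 the 4 differences lay between −0.72 and 0.67 with none past the test, and their 95% intervals together reached from −1.996 to 1.88, so differences within them are not excluded. The difference for Cd163 with LPS depended on the pseudocount: it was −0.41 (adjusted p = 0.514) in WT and 0.76 (0.207) in the libraries labelled AMPKa1-/- with 1 FPKM, and with 0.1 FPKM it was 1.36, again short of the test, and 3.06 (1.3e-04).

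**Figure D3:**
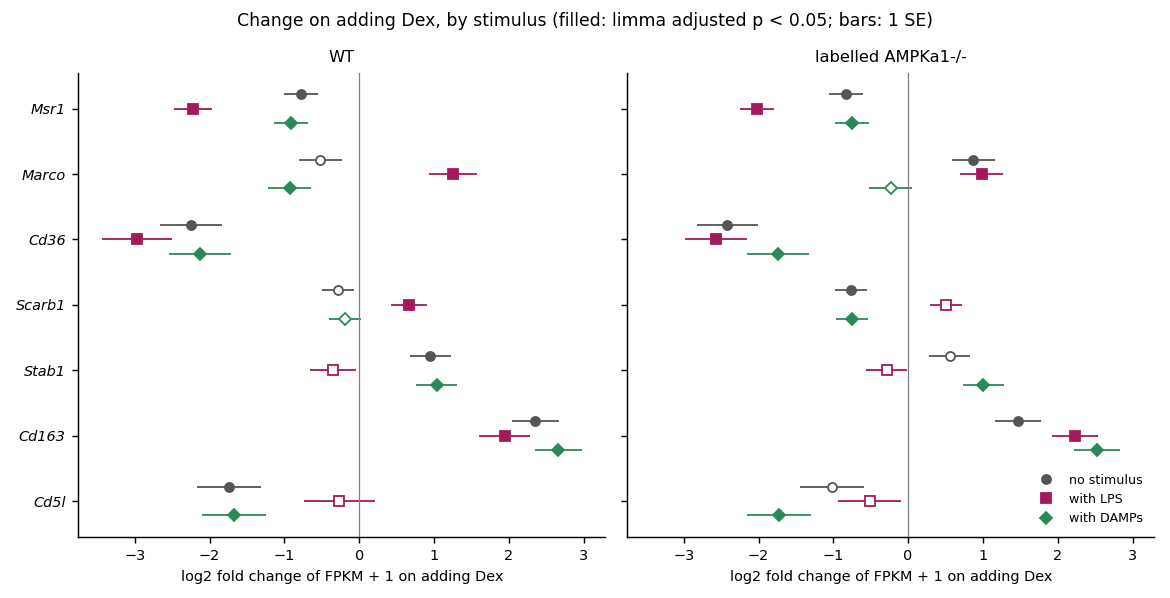
log2 fold change of FPKM + 1 on adding Dex for the 7 receptors tested, without a stimulus (grey circles), with LPS (magenta squares) and with DAMPs (green diamonds), in WT (left) and in the libraries labelled AMPKa1-/- (right); filled symbols have a limma adjusted p under 0.05 and bars are 1 SE. Msr1 lies further left with LPS (−2.22 and −2.02) than without (−0.78 and −0.83), Cd36 lies below −1.7 and Cd163 above 1.4 throughout, and Stab1 lies on the right without LPS and at −0.35 and −0.29 with it.

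Between genotypes, with all groups in the fit, at most 2 of the 7 receptors were called in any treatment. With vehicle, LPS, LPS + Dex and DAMPs, limma called 0 of 7 receptors, against 0.432%, 0.766%, 0.669% and 0.731% of all genes, and 2, 1, 2 and 1 of the 7 had an unadjusted p under 0.05. With Dex 2 of 7 were called, which is near the share of 26.5% over all genes. With DAMPs + Dex 1 of 7 was called, against 1.06%. All these shares rested on single libraries, that with Dex as given below. The others are small counts of genes. The 49 with vehicle became 28 without AMPKa1-/- replicate 2 or WT replicate 1, and 32 and 31 without AMPKa1-/- replicate 1 or WT replicate 3. The 87 with LPS became 22 and 133 without AMPKa1-/- replicate 1 or 3. Leaving out a WT LPS library left 1 in that group, and no count is given for it. The 76 with LPS + Dex became 36 and 48 without AMPKa1-/- replicate 1 or 3, and 39 without WT replicate 1. Leaving out any of the 6 libraries with DAMPs took the 83 to between 25 and 55. The 120 with DAMPs + Dex became 73 and 58 without AMPKa1-/- replicate 1 or 2, and 49 and 70 without WT replicate 2 or 3. Marco was 3.76-fold higher in the libraries labelled AMPKa1-/- with Dex (log2 fold change 1.88 ± 0.29, limma adjusted p = 0.000278), with every library of that group above every WT library, and it remained called with each library left out in turn (1.60 to 2.05). It was also 2.24-fold higher with DAMPs + Dex (1.15 ± 0.29, adjusted p = 0.0478), but that call lies at the threshold and was lost in 20 of the 35 fits that left out 1 library (adjusted p up to 0.339, with the size staying between 0.91 and 1.20). Marker sums of other cell types also separated these groups: with DAMPs + Dex they were 9.42 to 18.5 FPKM in WT and 1.997 to 4.39 in the libraries labelled AMPKa1-/- for fibroblasts, and 8.29 to 10.4 and 4.83 to 7.02 for endothelium. For neutrophils they were 0.356 to 1.02 and 1.85 to 4.07, and the part of these markers was not tested. In the other 4 treatments its log2 fold changes were all above 0, at 0.45 to 0.94, and did not pass.

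Cd163 was 1.97-fold lower in the libraries labelled AMPKa1-/- with Dex (−0.96 ± 0.31, limma adjusted p = 0.0269), again without overlap. That call was lost without AMPKa1-/- Dex replicate 2, WT Dex replicate 2 or WT Dex replicate 1 (adjusted p = 0.208, 0.123 and 0.0833), and with a pseudocount of 0.1 (0.0597) or no filter (0.0544). The same 3 libraries carried the number of all genes called between genotypes with Dex, which was 3008 with all libraries and 308, 305 and 1673 without each in turn. Markers of other cell types differed with Dex too. In WT and in the libraries labelled AMPKa1-/-, the median sums were 0.914 and 8.16 FPKM for neutrophils, 15.1 and 3.90 for fibroblasts and 10.8 and 4.87 for endothelium, against 22782 and 35371 for macrophages, and their part in the differences of Marco and Cd163 was not tested. Cd5l had a lower mean in the libraries labelled AMPKa1-/- in 6 of 6 treatments, with log2 fold changes from −0.86 to −1.59. With vehicle, Dex, LPS and DAMPs no library overlapped. None passed the test (limma adjusted p = 0.1001 with vehicle, 0.121 with Dex and higher elsewhere). Cd5l was called with Dex when only the groups compared were fitted (0.0350), and with vehicle when a replicate block was added (0.0460). The treatments of a genotype share replicate numbers, so the 6 differences may not be independent. How many other genes showed the same was not counted. Msr1, Cd36, Scarb1 and Stab1 did not pass in any treatment; with vehicle, the 95% intervals of their differences were −0.31 to 0.62, −1.29 to 0.41, 0.10 to 0.97 and −0.34 to 0.78.

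None of the 5 tests of whether genotype altered a response (Dex, LPS or DAMPs against vehicle, LPS + Dex against LPS and DAMPs + Dex against DAMPs) called a receptor or any other gene. For each, limma called 0 of 7 receptors and 0% of the 11354 genes, with 2441, 514, 66, 311 and 234 genes at an unadjusted p under 0.05. With no filter on low values, 21, 118, 2, 75 and 9 of 27414 genes were called. For LPS against vehicle, 5 genes were called with the replicate block, 3 without moderation and 5 without AMPKa1-/- LPS replicate 3. For Dex against vehicle, 4 were called after centring. The response of Marco to Dex differed by 1.39 ± 0.41 between genotypes (adjusted p = 0.194) and was the one among the 35 receptor results of these tests with an unadjusted p under 0.05, and that of Cd163 differed by −0.89 ± 0.44 (adjusted p = 0.235). A response called in one genotype and not in the other, such as that of Marco or Scarb1 to Dex, is therefore not shown to differ between them.

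**Figure D4:**
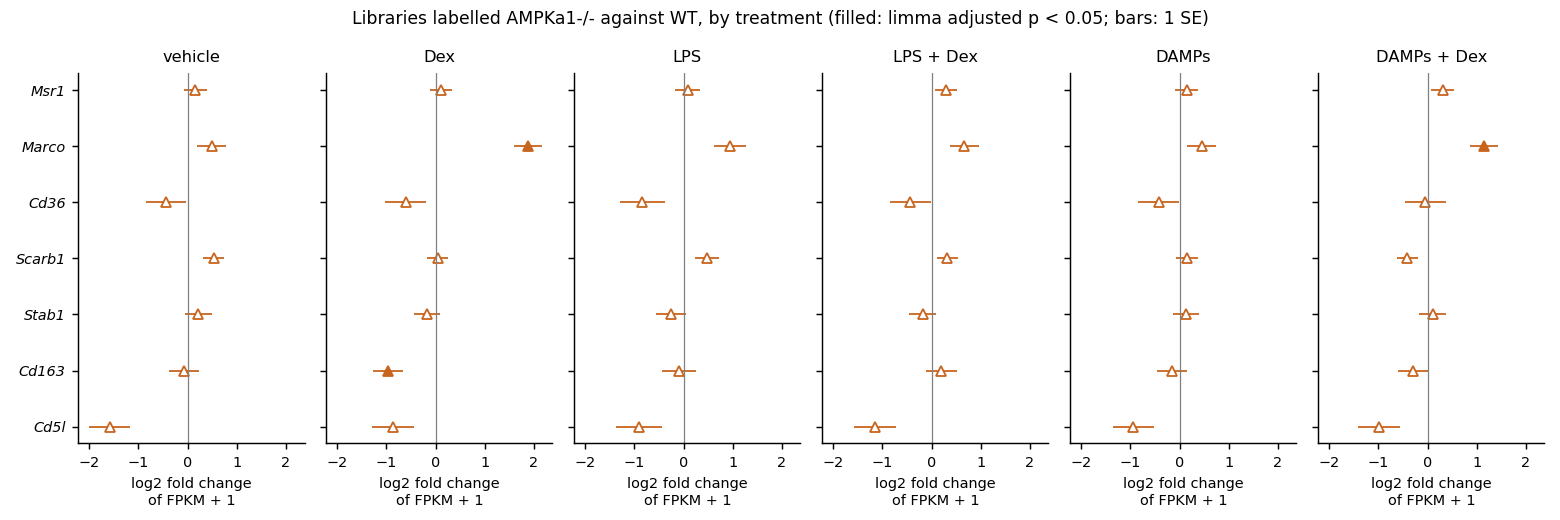
log2 fold change of FPKM + 1 in the libraries labelled AMPKa1-/- against WT for the 7 receptors tested, in 1 panel for each treatment; filled triangles have a limma adjusted p under 0.05 and bars are 1 SE. The filled symbols are Marco with Dex (1.88) and with DAMPs + Dex (1.15) and Cd163 with Dex (−0.96), and Cd5l lies below 0 in all 6 panels.

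Among other scavenger receptors, more fell than rose with Dex and with LPS. Of 20 further genes listed, 12 were above the filter. Over all genes, more called genes also fell than rose with LPS in WT, where 35.7% of those called were higher (46.3% after centring). For Dex the direction over all genes turned with the scaling, at 51.6% higher in WT (45.0% after centring) and 42.8% in the libraries labelled AMPKa1-/- (51.9%). In WT, Dex against vehicle raised 2 and lowered 5 (median log2 fold change −0.39, against 0.05 over all genes, of which 30.9% were called). LPS raised 3 and lowered 8 (−1.68, against −0.19, with 55.7% called), DAMPs raised 2 and lowered 1 (2.01% called), and Dex added to LPS raised 1 and lowered 5 (−0.07, against −0.03, with 34.1% called). The counts in the libraries labelled AMPKa1-/- were 2 and 6 for Dex, 3 and 8 for LPS, and 2 and 5 for Dex added to LPS, with 27.9%, 64.3% and 37.7% of all genes called. Mrc1, the mannose receptor, fell with LPS from 191 to 0.773 FPKM in WT (−6.76 ± 0.20, limma adjusted p = 1.39e-20), and Cd68, the lysosomal glycoprotein macrosialin, which is also on the list of macrophage markers, from 1522 to 187 FPKM (−3.02 ± 0.24, adjusted p = 1.6e-11). Clec7a, the beta-glucan receptor dectin-1, had log2 fold changes of −2.54 with Dex and −4.06 with LPS. The oxidized lipoprotein receptor and chemokine Cxcl16 went from 261 FPKM with LPS to 99.4 with LPS + Dex (−1.38 ± 0.20, adjusted p = 3.29e-06), the hyaluronan receptor Cd44 from 96.9 to 48.7 with Dex, and Colec12, a collectin of the scavenger receptor family, from 11.9 FPKM with LPS up to 29.9 with LPS + Dex (1.23 ± 0.29, adjusted p = 0.00121).

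Around Cd163, the list for haptoglobin, haem and iron handling held 13 genes, 12 of them tested. In WT, Dex raised 2 and lowered 5 of these (30.9% of all genes called; median −0.45, against 0.05), LPS raised 2 and lowered 9 (55.7%; −0.91, against −0.19), and Dex added to LPS raised 3 and lowered 1, a share near the 34.1% of all genes. In the libraries labelled AMPKa1-/- the balance differed for Dex, at 3 higher and 3 lower (27.9%; median 0.04, against −0.05), and for Dex added to LPS, at 1 higher and 2 lower (37.7%), with 3 higher and 7 lower for LPS (64.3%). These differences in balance were not tested. Hp, which encodes haptoglobin, the ligand that Cd163 clears once it is bound to haemoglobin, rose from 8.51 to 268 FPKM with Dex (log2 fold change 5.08 ± 0.45, limma adjusted p = 1.43e-09), and from 97.5 ± 33.2 with LPS (SD, n = 2) to 14391 ± 2491 with LPS + Dex (n = 3; 7.22 ± 0.51, adjusted p = 4.77e-12). Hmox1, the haem oxygenase that degrades the haem taken up, rose from 872 to 1907 FPKM with Dex (1.13 ± 0.23, adjusted p = 0.000347), whereas the cytokine gene Il10 fell by 1.35. With LPS the iron exporter Slc40a1 fell from 126 to 0.644 FPKM (−6.25 ± 0.39, adjusted p = 1.16e-13) and the ferritin light chain gene Ftl1 had a log2 fold change of −1.64. Smaller changes on adding Dex to LPS were those of the haem transporter Slc48a1 (−0.63 ± 0.17) and the metal transporter Slc11a1 (0.47 ± 0.15).

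Genes that handle lipid after uptake fell with LPS more often than they rose, as called genes did overall. Of 20 listed, 19 were tested: in WT, LPS raised 2 and lowered 13 (55.7% of all genes called; median −1.64, against −0.19), Dex alone raised 5 and lowered 4 (30.9%; −0.10, against 0.05), and Dex added to LPS raised 4 and lowered 6 (34.1%; −0.13, against −0.03). The counts in the libraries labelled AMPKa1-/- were 2 and 13, 4 and 6, and 5 and 6, against 64.3%, 27.9% and 37.7% of all genes. Pparg, the nuclear receptor known to drive Cd36, fell with LPS from 36.4 to 0.664 FPKM (log2 fold change −4.48 ± 0.24, limma adjusted p = 4.05e-15), and the lysosomal lipase gene Lipa by a log2 fold change of −4.18. Lipoprotein lipase (Lpl) fell from 1478 to 212 FPKM with Dex (−2.88 ± 0.31, adjusted p = 5.57e-08), and Lipa had a log2 fold change of −1.78. The fatty acid binding protein gene Fabp4 rose by 1.79 with Dex and from 2.11 to 43.1 FPKM when Dex was added to LPS (3.86 ± 0.36, adjusted p = 1.62e-09), where the cholesterol exporters Abca1 and Abcg1 had values of −1.75 and −1.79.

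Transcription factors known to act on these receptors numbered 14, all tested. LPS raised 3 and lowered 10 of them in WT (55.7% of all genes called; median −0.84, against −0.19), Dex raised 4 and lowered 4 (30.9%; 0.00, against 0.05), and Dex added to LPS raised 5 and lowered 2 (34.1%; 0.22, against −0.03). The counts in the libraries labelled AMPKa1-/- were 3 and 10, 3 and 3, and 7 and 3, against the same 64.3%, 27.9% and 37.7%. Klf4, a factor linked to alternative activation, rose with Dex from 6.37 to 67.7 FPKM (log2 fold change 3.20 ± 0.21, limma adjusted p = 3.74e-12) and on adding Dex to LPS from 1.31 to 14.7 (2.75 ± 0.24, adjusted p = 3.12e-10). Atf3, a stress-induced repressor, fell by 1.59 with Dex and from 141 to 19.2 FPKM on adding Dex to LPS (−2.80 ± 0.24, adjusted p = 2.84e-10). Cebpa had a log2 fold change of −3.61 with LPS, and Cebpb one of 2.21. Dex raised Cebpb by 1.16, and Dex added to LPS raised Cebpa by 1.72. The 12 genes listed as stimulus controls gave 5 higher and 3 lower with Dex, 8 higher and 2 lower with LPS, 1 higher and 0 lower with DAMPs, and 5 higher and 7 lower for Dex added to LPS in WT. Of all genes, 30.9%, 55.7%, 2.01% and 34.1% were called in these comparisons. The prostaglandin synthase gene Ptgs2 rose by 9.70 and Acod1, which makes itaconate, by 9.06 with LPS. The phosphatase gene Dusp1 rose by 3.42 with Dex, and Cxcl10, Ptgs2 and Il6 had log2 fold changes of −9.07, −8.31 and −6.86 on adding Dex to LPS.

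The receptors did not share one pattern. Over the 12 group means of log2(FPKM + 1), Pearson's r was 0.822 for Cd36 and Cd5l and 0.779 for Stab1 and Cd163. It was −0.914 for Marco and Stab1, −0.798 for Msr1 and Cd163, −0.747 for Marco and Cd5l, and −0.737 for Marco and Cd36. The genes whose pattern was most like that of each receptor were picked by the same measure from all genes tested. For Msr1 they were the collagenase gene Mmp13 (r = 0.985), Kctd12 (0.976) and Stim2 (0.972), and for Marco Aoah (0.987), whose product deacylates LPS, and Siglece (0.983). For Cd36 they were Atp6v0a1 (0.989), Mitf (0.986) and Cbarp (0.982), and for Scarb1, with lower values than any other receptor, Pik3cd (0.892), Tmem273 (0.886) and Slc16a10 (0.882). Stab1 was matched by Ppp2r5d (0.994), Tmem198b (0.989) and Zscan21 (0.989), Cd163 by Sgms1 (0.994), Prr14 (0.987) and C030034L19Rik (0.986), and Cd5l by the heparanase gene Hpse (0.968), Rgs18 (0.962) and Cd22 (0.956). These values describe likeness over 12 points that include the treatments' large shared shifts, and were chosen as the highest of 11354.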

How the data were processed

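RNA was extracted with TRIzol and sequenced by a commercial provider. Per the file headers, the authors deposited 1 table of FPKM per library, a unit scaled to gene length and library size; how it was computed is not given in the sources used here. The submitters' processing notes name Bowtie2 2.2.3, TopHat2 2.0.12, HTSeq 0.6.1, DESeq2 and GRCm38/mm10, with no role or order. Raw counts were not used here. FPKM from the deposited tables was transformed to log2(FPKM + 1), and a fold change on that scale understates the change of low genes. All 12 groups entered 1 linear model without covariates in limma 3.58.1 (R 4.3.3; empirical Bayes with trend, 2-sided), over the 11354 genes whose mean FPKM reached 1, with Benjamini-Hochberg adjustment over all of them and a threshold of 0.05. Interactions were contrasts of the same fit. Errors are SE for log2 fold changes and SD for means, folds are ratios of mean FPKM, and the script was tested on simulated data. Depth was read from the steps between low FPKM values, of which 55.3% to 63.9% were whole multiples within 0.001, too few to run a count test; fragments of Cd163 and Olr1 are the largest step that gave whole numbers, within 0.05, in all libraries.

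The 8 receptors, the gene lists (other scavenger receptors; haptoglobin, haem and iron handling; lipid handling after uptake; transcription factors; stimulus controls) and the cell type markers were chosen with earlier results of these data known. The text names all 8 receptors, Prkaa1, the 3 genes most correlated with each receptor, the controls Tsc22d3, Fkbp5, Il1b and Cxcl10, and from each list up to 3 genes with the largest log2 fold change among those called without overlap, for LPS + Dex against LPS, Dex against vehicle and LPS against vehicle in WT. A few genes that this rule names are not reported here. Ensembl entries were given symbols and positions from GENCODE M21, and promoters came from RefSeq.

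Replicate numbers were checked for pairing by correlating the deviations of same-numbered libraries from their group means. The 85 correlations ran from −0.494 to 0.757, and all 3 exceeded 0.1 in 7 of 30 pairs of treatments, among them, in the libraries labelled AMPKa1-/-, Dex and vehicle (0.217 to 0.400), LPS and vehicle (0.124 to 0.316), LPS + Dex and LPS (0.356 to 0.375) and LPS + Dex and vehicle (0.246 to 0.364). For these comparisons the numbers were taken to pair the libraries, but p-values come from the fit without a block unless the block is named. Other treatments of the same label did not pass, such as DAMPs and DAMPs + Dex (−0.494 to 0.125), so what the numbers mark stays unknown. The WT pairs that passed were DAMPs and Dex, DAMPs and LPS + Dex, and Dex and LPS + Dex, which are not compared here. The alternatives tried were a pseudocount of 0.1, no filter, a minimum of 5 FPKM, centring on 1 median, quantile normalization, a fit of only the groups compared, a fit of 1 genotype, no moderation, a block for the replicate number, and fits that each dropped 1 library.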

Additional observations from a re-analysis of the deposited data

Results flagged for a closer look

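The response to Dex differed with and without LPS by a test of the difference itself (limma interaction, adjusted over all genes) in 6 results, 4 of 7 receptors in WT and 2 of 7 in the libraries labelled AMPKa1-/-. Of all genes, 32% and 28.4% were called in the same tests, so the second count is at the share over all genes. Msr1 fell further with Dex when LPS was present, by −1.44 in WT and −1.19 in the libraries labelled AMPKa1-/-. Marco responded more positively by 1.77 in WT. Scarb1 did so by 0.95 in WT and 1.28 in the libraries labelled AMPKa1-/-. Stab1 responded less by −1.30 in WT. All are differences of log2 fold changes. These differences share their control libraries, and Saa3 took 16.0% to 24.0% of FPKM with LPS + Dex; its part in them was not tested beyond the scaling alternatives.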

How the results depend on the processing

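Of 203 receptor results, 75 were called, and none changed direction past the threshold under up to 9 other settings or with any of the 35 libraries left out; 58 of the 75 kept their call throughout. Receptors called with DAMPs in WT numbered 1, and 0 with only the groups compared, 2 with the 6 groups of the genotype alone and 2 with the replicate block; in the libraries labelled AMPKa1-/- they numbered 1, and 2 with only the groups compared and 2 with the replicate block. Between genotypes, 0 were called with vehicle and 1 with the replicate block, 2 with Dex (1 with a pseudocount of 0.1 or no filter, 3 with only the groups compared), and 1 with DAMPs + Dex and 0 with a pseudocount of 0.1, no filter, centring, quantile normalization, only the groups compared or no moderation. Leaving out 1 library moved the counts to 1 to 2 for DAMPs in each genotype, 3 to 5 for LPS + Dex against LPS in WT, 1 to 2 between genotypes with Dex, 0 to 1 with DAMPs + Dex, and 2 to 5 for the Dex response with LPS in WT. Fits without 1 of the 2 WT LPS libraries left 1 library in that group and took its spread from the other groups. The replicate block changed 5 calls, all newly made and all given with the results. In the libraries labelled AMPKa1-/- they were Scarb1 for LPS + Dex against LPS (limma adjusted p = 0.0333), Cd5l with Dex (0.0467) and Cd36 with DAMPs (0.0165). The others were Cd36 with DAMPs in WT (0.0254) and Cd5l between genotypes with vehicle (0.0460).

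Over all genes, the number called moved by over 1.5 times for DAMPs in WT (228, and 0 with only the groups compared, 94 with the 6 groups of the genotype), DAMPs in the libraries labelled AMPKa1-/- (469, and 274), LPS + Dex against LPS in WT (3871, and 1931), and DAMPs + Dex against DAMPs in WT (2756, and 1825), each with only the groups compared. Between genotypes it went from 49 to 13 with vehicle, 87 to 4 with LPS, 76 to 7 with LPS + Dex, 83 to 7 with DAMPs and 120 to 32 with DAMPs + Dex under that setting, and to 92, 450 and 146 with no filter for the first 3. It was also 83 with vehicle with the replicate block, 27 with vehicle and 54 with DAMPs at a minimum of 5 FPKM, and 41 with DAMPs with a pseudocount of 0.1. For the Dex response with DAMPs, the 35 genes in the libraries labelled AMPKa1-/- became 7 to 113 under the settings given with the results, and the 1 gene in WT 0 to 11. With Dex it went from 3008 to 305 and 308 without WT or AMPKa1-/- Dex replicate 2. The share of higher genes among those called depended on scaling: centring took it from 35.7% to 46.3% for LPS and from 31.7% to 50.3% for LPS + Dex in WT, and from 31.4% to 49.0% and from 29.0% to 50.9% in the libraries labelled AMPKa1-/-. The causes were not tested. Depth limits Olr1 and, with LPS, Cd163.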
